A study of Mus musculus with 6 samples.

Results

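Expression of 7 genes of cholesterol synthesis and of its control was measured in the hearts of irisin knockout and wild type mice. The genes were Hmgcs1, Idi1, Fdps, Sqle and Cyp51, which encode enzymes, and Srebf2 and Insig1, which encode regulators. They were found by their symbol in the platform annotation, and all 7 had 1 row among the 23185 named genes of the table. The arrays came from 3 wild type and 3 irisin knockout samples of the inbred FVB strain, 1 Affymetrix array each. The knockout animals carried a disruption made with Cas9 and 5 guide RNAs injected into FVB zygotes, and their littermates served as controls. Both groups ate standard chow with 10% fat for 24 weeks; neither had another allele or agent in the labels. The sources used here give neither the number of founder lines nor the deleted part of the gene. The label fields name the material both as cardiomyocytes and as myocardium. They do not state that each array of a group came from its own animal, so the spread behind the p-values may be partly technical.

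Cholesterol is built from acetyl-CoA through mevalonate, isoprenoid diphosphates, squalene and lanosterol. When sterol is scarce in the endoplasmic reticulum, the carrier Scap brings the membrane-bound transcription factor encoded by Srebf2 to the Golgi, where proteases release its active part. That part switches on the enzyme genes and Insig1, whose product holds Scap back when sterol returns, which closes a feedback loop. The regulation is therefore partly at the protein level, which arrays of RNA do not measure.

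The factor is known to bind sterol regulatory elements near gene starts, usually beside sites for NF-Y (CCAAT) and Sp1 (GGGCGG). RefSeq promoter sequence of the mouse build GRCm38.p6 was matched for 5 of the 7 genes by symbol, and the 250 bases before the gene start are shown for the pair of called genes, Cyp51 and Insig1, and for Hmgcs1 and Srebf2, which hold the stricter sterol element letters TCACCCCA. Capitals mark matches, on either strand, to TCACNNCA (a loose form of the sterol element, which includes TCACCCCA), CCAAT (the NF-Y site) and CACGTG (an E-box). The sequences run 5′ to 3′ and end at the base before the gene start. Cyp51 lies on the minus strand at chr5:4104698-4104947, Insig1 on the plus strand at chr5:28071162-28071411, Hmgcs1 on the plus strand at chr13:119690101-119690350, and Srebf2 on the plus strand at chr15:82147019-82147268.
Cyp51: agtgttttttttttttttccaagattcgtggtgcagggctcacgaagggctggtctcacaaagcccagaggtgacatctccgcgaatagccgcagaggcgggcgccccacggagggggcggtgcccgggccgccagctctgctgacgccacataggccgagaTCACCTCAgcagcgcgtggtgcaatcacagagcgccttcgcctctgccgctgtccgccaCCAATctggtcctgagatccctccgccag
Insig1: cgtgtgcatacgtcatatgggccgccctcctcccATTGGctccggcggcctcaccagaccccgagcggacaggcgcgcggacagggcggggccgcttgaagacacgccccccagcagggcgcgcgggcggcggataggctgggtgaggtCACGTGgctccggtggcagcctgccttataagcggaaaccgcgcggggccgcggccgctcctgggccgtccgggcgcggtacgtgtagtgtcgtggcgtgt
Hmgcs1: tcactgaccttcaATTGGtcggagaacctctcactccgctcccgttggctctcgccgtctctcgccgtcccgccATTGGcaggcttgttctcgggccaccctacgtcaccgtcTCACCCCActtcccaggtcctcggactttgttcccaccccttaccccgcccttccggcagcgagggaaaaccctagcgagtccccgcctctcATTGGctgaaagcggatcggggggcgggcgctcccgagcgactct
Srebf2: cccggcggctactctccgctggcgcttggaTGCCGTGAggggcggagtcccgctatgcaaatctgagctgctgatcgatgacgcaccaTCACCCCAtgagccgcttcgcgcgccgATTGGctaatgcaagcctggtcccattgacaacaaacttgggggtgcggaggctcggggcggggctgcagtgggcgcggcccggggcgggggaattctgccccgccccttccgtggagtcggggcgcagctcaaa

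The letters TCACCCCA occurred 137 bases before the start of Hmgcs1 and 162 bases before that of Srebf2. They occurred in the same window of 1.34% of all 32851 RefSeq promoters. The looser TCACNNCA, found in 11.4% of promoters, was also present 88 bases before the start of Cyp51. Insig1 had neither form in this window but had CACGTG, found in 6.02% of promoters and 7.61% of protein-coding genes, 101 bases before its start. CCAAT and GGGCGG, found in 33.8% and 32.7% of promoters, each occurred in all 5 promoters that were matched. Counted by protein-coding gene, the background shares were 39.5% and 45.8%. Idi1, whose promoter was also matched but is not shown, held neither form of the sterol element and no E-box in this window. Of the pair of called genes, 1 held TCACNNCA, and both genes with TCACCCCA were not called. The motifs were chosen after the promoter sequences were seen, so the matches and shares are only a description.

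On the log2 scale of the deposited values the array medians lay between 2.13 and 2.28. Fndc5, which encodes the precursor of irisin, stood at 8.42, 8.40 and 7.83 in the wild type arrays and at 7.68, 5.49 and 5.45 in knockout replicates 1, 2 and 3. Knockout replicate 1 thus lay close to the wild type arrays, although the groups did not overlap (difference -2.01, limma adjusted p = 0.0359). A robust variance model ended that call (0.0635), as did leaving out any single array except knockout replicate 1 (adjusted p 0.0617 to 0.133). At an adjusted p below 0.05, 2416 of all genes (10.4%) were called higher and 1432 (6.18%) lower in the knockout. Centring each array on its median gave 3162 and 977 and moved the median difference of all genes by 0.11. Cardiomyocyte markers averaged 11.04 to 11.49 in wild type and 11.38 to 11.47 in the knockout. Of these 7 markers 1 was called higher (Pln, difference 0.76, limma adjusted p = 0.0274) and 0 lower. The groups did not overlap for 3 of the 7, all higher, against 17.2% of all genes. Markers of other cell types were measured as well. The mean of 7 fibroblast markers was 7.16 to 8.06 in wild type and 6.19 to 6.38 in the knockout, with 5 of 7 lower, and that of 4 smooth muscle markers 6.23 to 8.73 and 4.51 to 5.10, with 4 of 4 lower. The fibroblast markers were uneven. Dcn was level (difference -0.012) and Lum was not called (-0.33, limma adjusted p = 0.312). The 5 called ran from -0.65 for Pdgfra to -2.85 for Col3a1. Endothelial markers averaged 7.82 to 7.90 and 7.45 to 7.69 (1 of 5 lower), and macrophage markers 4.39 to 4.52 and 4.21 to 4.38 (1 of 5 lower). The macrophage markers were mixed. The groups did not overlap for Cd68, which was higher (difference 0.40, limma adjusted p = 0.0731), and for 2 that were lower. Over all genes those shares were 17.2% higher and 17.0% lower. Adipocyte markers averaged 1.70 to 2.47 and 1.86 to 2.11 (0 of 4 called, with 1 further marker lacking a row), a level near the array medians that is not told apart from background. In such samples fewer cells of a type and less RNA of single marker genes per cell cannot be told apart.

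**Figure D1:**
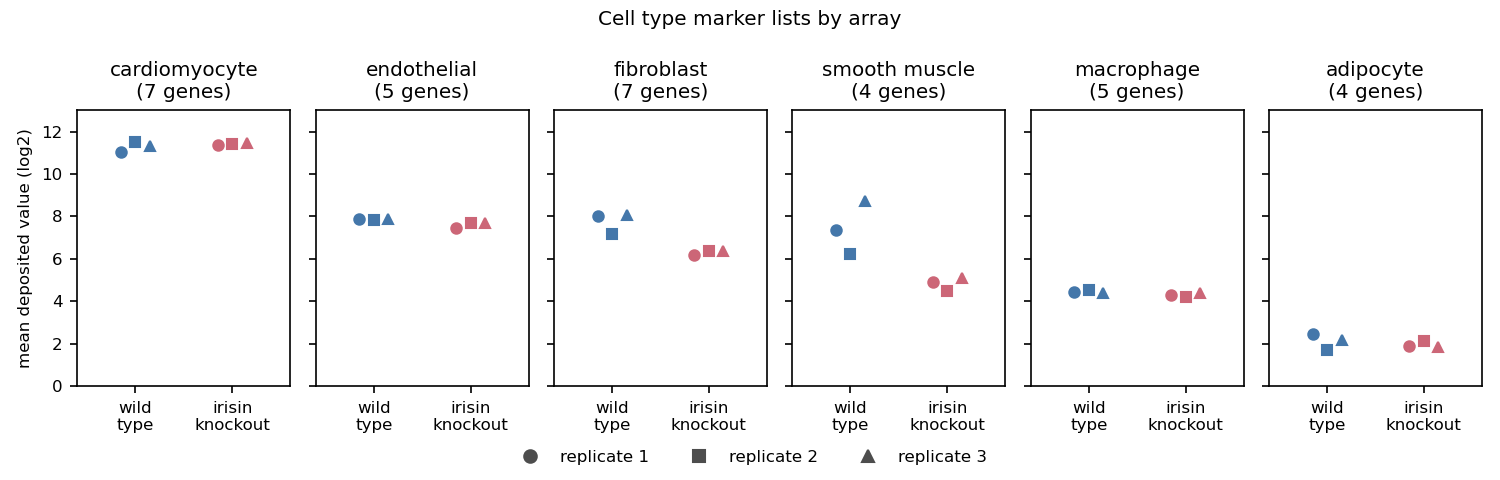
Mean deposited value (log2, y axis) over each list of cell type markers, for each of the 3 wild type and 3 irisin knockout arrays (x axis; symbols mark replicates 1 to 3). The fibroblast and smooth muscle lists lie lower on all 3 knockout arrays than on any wild type array, and the endothelial and macrophage lists do so by a narrow gap, while the cardiomyocyte and adipocyte lists overlap.

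Of the 7 genes, Cyp51 and Insig1 rose in the knockout, 0 fell and 5 did not pass the test. By comparison 16.6% of all genes tested were called, 10.4% higher and 6.18% lower. The median difference over the 7 was -0.008, beside -0.045 over all genes, and 4 of the 7 differences were below 0. That median had no settled sign: it was 0.072 after quantile normalization, 0.104 after centring and 0.058 after cyclic loess, and ran from -0.103 without wild type replicate 2 to 0.131 without wild type replicate 1. Without the dimmest 50% of genes, which leaves 4 of the 7, it was 0.662. That filter used the mean over all 6 arrays, so the higher knockout values of Cyp51 counted toward keeping it. The 0.662 is therefore only a description. The groups did not overlap for 3 of the 7, all higher in the knockout, against 34.1% of all genes, 17.2% higher and 17.0% lower, by that measure. The count of 2 called genes was unchanged in each of the 6 fits that leave out 1 array and after each of 3 other scalings of the arrays.

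**Figure D2:**
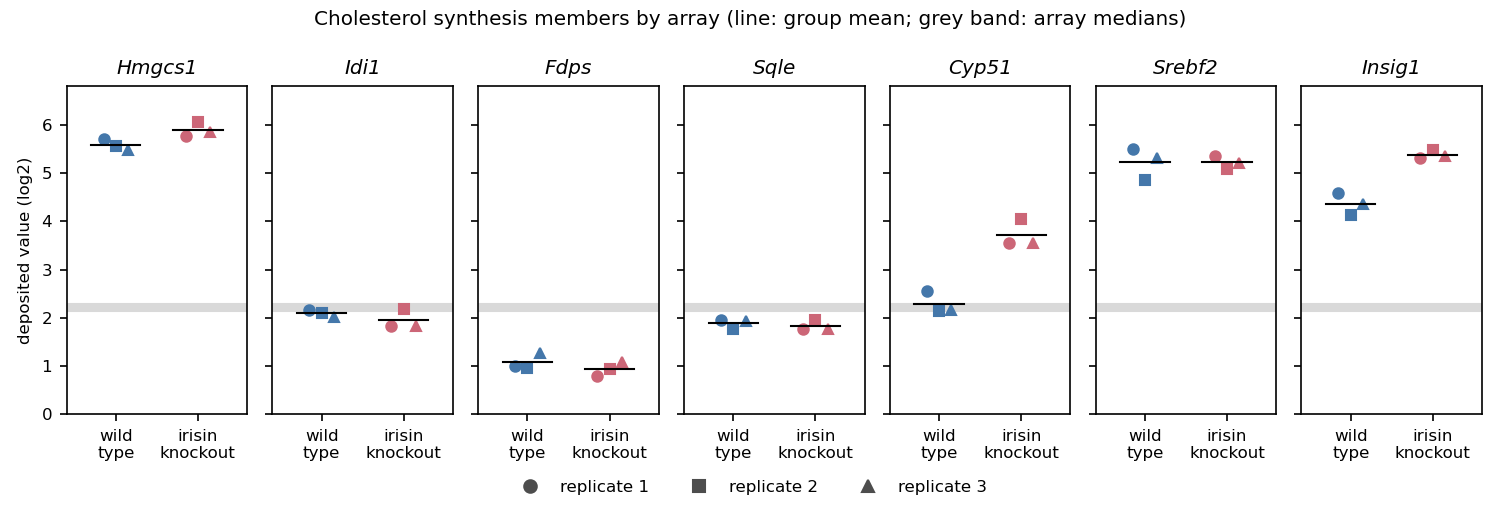
Deposited value (log2, y axis) of the 5 enzyme genes and the 2 regulators on each array (symbols mark replicates 1 to 3, black lines group means, the grey band the range of the 6 array medians). Cyp51 and Insig1 are higher on all 3 knockout arrays with a clear gap, while Sqle and Fdps lie below the band in both groups.

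Cyp51 encodes the cytochrome P450 that demethylates lanosterol, the step that opens the conversion of lanosterol to cholesterol. Its values were 2.56, 2.14 and 2.17 in wild type replicates 1, 2 and 3 and 3.54, 4.05 and 3.54 in the matching order of knockout arrays. All knockout arrays were above all wild type arrays, and wild type replicates 2 and 3 lay just below their array medians, so the wild type level is not told apart from background. Mean values were 2.29 ± 0.24 in wild type and 3.71 ± 0.30 in the knockout (SD, n = 3), a difference of 1.42 (SE 0.18, 95% interval 1.00 to 1.84, limma adjusted p = 0.00187), or 2.68-fold on the deposited values, a fold that rests on that dim wild type level. The difference stayed between 1.25 and 1.64 in 19 other settings, with an adjusted p of at most 0.00900. Knockout replicate 1, in which Fndc5 was close to wild type, had the same Cyp51 value to 2 decimals as replicate 3, while replicate 2 was higher (4.05). A relation of Cyp51 to the Fndc5 level was not tested.

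Hmgcs1 encodes the cytosolic synthase that makes HMG-CoA, the entry to the mevalonate pathway. Its values were 5.71, 5.57 and 5.48 in wild type and 5.77, 6.05 and 5.85 in the knockout. The groups did not overlap, but the gap between wild type replicate 1 and knockout replicate 1 was narrow. The difference of 0.31 (SE 0.13, 95% interval 0.01 to 0.60) did not pass the adjusted test (limma adjusted p = 0.153). It depended on scaling, from 0.13 after cyclic loess to 0.42 after centring, and it was not called in any of the 19 other settings (lowest adjusted p 0.0672).

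The 3 remaining enzymes were dim on these arrays. Idi1, which interconverts the isoprenoid building blocks, read 2.17, 2.09 and 2.02 in wild type and 1.83, 2.17 and 1.84 in the knockout. Knockout replicate 2 reached the top of the wild type range and the other 2 knockout arrays lay below it (difference -0.15, 95% interval -0.45 to 0.16, limma adjusted p = 0.534). Fdps makes farnesyl diphosphate, the branch point between sterols and other isoprenoids, and read 1.00, 0.96 and 1.28 in wild type and 0.80, 0.94 and 1.09 in the knockout. Its groups overlapped (difference -0.14, interval -0.46 to 0.18, limma adjusted p = 0.573). Sqle oxidises squalene, a rate-limiting step of the later pathway, and read 1.95, 1.77 and 1.93 in wild type and 1.78, 1.96 and 1.77 in the knockout. Each group held both higher and lower arrays (difference -0.048, interval -0.32 to 0.23, limma adjusted p = 0.839).

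For these dim genes the test had little to work with. Sqle and Fdps lay below the median of every array, no detection calls were used, and a value that low is not told apart from background. With all genes split by mean level into 10 parts of equal size, from dim to bright, part 2, which holds Fdps, had 2 of 2319 genes called higher and 18 called lower. Part 5, which holds Idi1 and Sqle, had 47 of 2318 called higher and 103 lower. Part 6, which holds Cyp51, had 6.86% called higher. Part 8, which holds Insig1, had 20.7%, and part 9, which holds Hmgcs1 and Srebf2, had 25.5%. These parts use the mean over all 6 arrays, so the higher knockout values of Cyp51 counted toward its place in part 6. Median differences of the parts also rose with level, from -0.118 in part 5 to 0.266 in part 10. Bright genes thus tended to read higher in the knockout, for reasons that were not tested. A missed call for Idi1, Fdps or Sqle does not show that their transcripts were at equal levels.

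Insig1, the sterol-sensing brake on Scap and itself a target of the factor it restrains, read 4.58, 4.14 and 4.36 on the wild type arrays. On the knockout arrays it read 5.31, 5.47 and 5.35. The knockout arrays lay close together, and the lowest of them was above the highest wild type array. Means were 4.36 ± 0.22 and 5.38 ± 0.09 (SD, n = 3), a difference of 1.02 (SE 0.14, 95% interval 0.70 to 1.34, limma adjusted p = 0.00251), or 2.03-fold. Across 19 other settings the difference was 0.91 to 1.17 and the adjusted p at most 0.0170.

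Srebf2, which encodes the transcription factor itself, showed no such difference. It read 5.50, 4.85 and 5.32 in wild type and 5.35, 5.09 and 5.21 in the knockout, and the knockout values lay inside the wild type range. The difference was -0.008 (95% interval -0.41 to 0.40, limma adjusted p = 0.984), an interval that spans 0.752-fold to 1.32-fold. Its sign turned in 5 of the 19 other settings, among them centring each array on its median (0.10). The two-sided exact permutation test of single genes gave p = 0.1 for Cyp51, Insig1 and Hmgcs1, the smallest value 3 arrays against 3 allow, and 0.4 to 1 for the other 4.

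**Figure D3:**
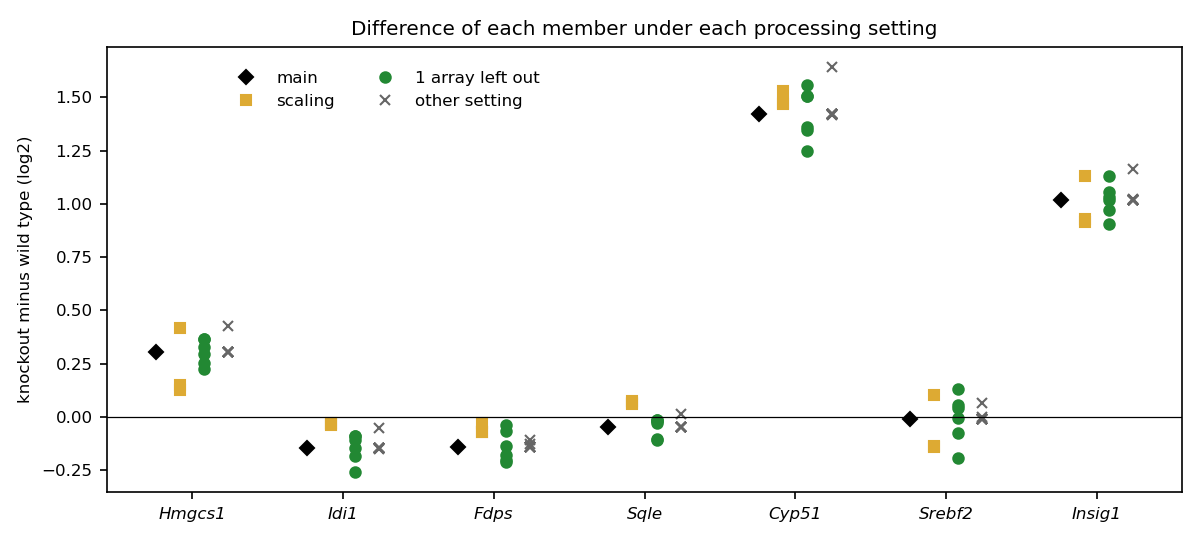
Difference of knockout and wild type (log2, y axis) for each of the 7 genes (x axis) as reported and under the other processing settings, split into scalings of the arrays, fits without 1 array, and the rest. Cyp51 stays at 1.25 or above and Insig1 at 0.91 or above, whereas Srebf2 and Sqle fall on both sides of 0.

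The other enzymes of sterol synthesis were taken from a list of 15, of which 13 had a row. Of these, 5 rose in the knockout, 1 fell and 7 did not pass, with a median difference of 0.26. Shares over all genes were 10.4% higher and 6.18% lower. Fdft1, squalene synthase, read 5.58, 5.39 and 5.38 in wild type and 6.75, 7.19 and 6.75 in the knockout, and its difference of 1.45 (SE 0.15, limma adjusted p = 0.000859) was 2.72-fold. Sc5d, a late desaturase, rose by 1.52 (adjusted p = 0.000739) and Nsdhl, which helps remove methyl groups from the sterol ring, by 1.05 (0.00438). Pmvk, which phosphorylates phosphomevalonate early in the pathway, fell by 0.86 (0.00359), from 4.40, 4.39 and 4.27 to 3.35, 3.44 and 3.70. These 4 genes were called in every fit that leaves out 1 array.

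Dhcr7 and Msmo1 also rose, but their wild type arrays were uneven; they fall outside the naming rule and were chosen after their values were seen. Dhcr7, the last reductase of one branch, read 3.69, 2.77 and 1.51 in wild type and 4.39, 4.37 and 4.45 in the knockout (difference 1.74, SE 0.45, limma adjusted p = 0.0316). Its value in wild type replicate 3 lay below the array median of 2.28 and is not told apart from background. The difference was 1.16 without that array and 2.26 without wild type replicate 1. Without wild type replicate 2 or any 1 knockout array the call was lost (0.0564 to 0.0973). Msmo1, the sterol methyl oxidase, differed by 0.70 (adjusted p = 0.0456). Of the 6 fits on 5 arrays, the one that omits wild type replicate 1 kept that call and the other 5 did not (up to 0.156), and a variance trend ended it (0.0525). Without wild type replicate 2 or any 1 knockout array, 3 of the 13 enzymes were called higher instead of 5.

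Set in pathway order, with the 5 enzymes described first included, the calls were unevenly placed, as a description of 18 genes with no test. Of 6 enzymes up to farnesyl diphosphate 0 were higher and 1 was lower. Of 3 from squalene formation to lanosterol 1 was higher, and of 9 after lanosterol 5 were higher and 0 lower. Over all genes the share called higher was 10.4%. The 5 include Msmo1 and Dhcr7, whose calls were lost in 5 and 4 of the 6 fits without 1 array. Median differences of these stages were -0.084, -0.048 and 0.70, the last being the difference of Msmo1. Idi1, Fdps and Sqle, the dim enzymes named above, belong to the first 2 stages. So does Lss, which read 1.49 to 1.97 over the arrays, below every array median. Hsd17b7, after lanosterol, was also dim (1.52 to 2.17) and was not called.

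**Figure D4:**
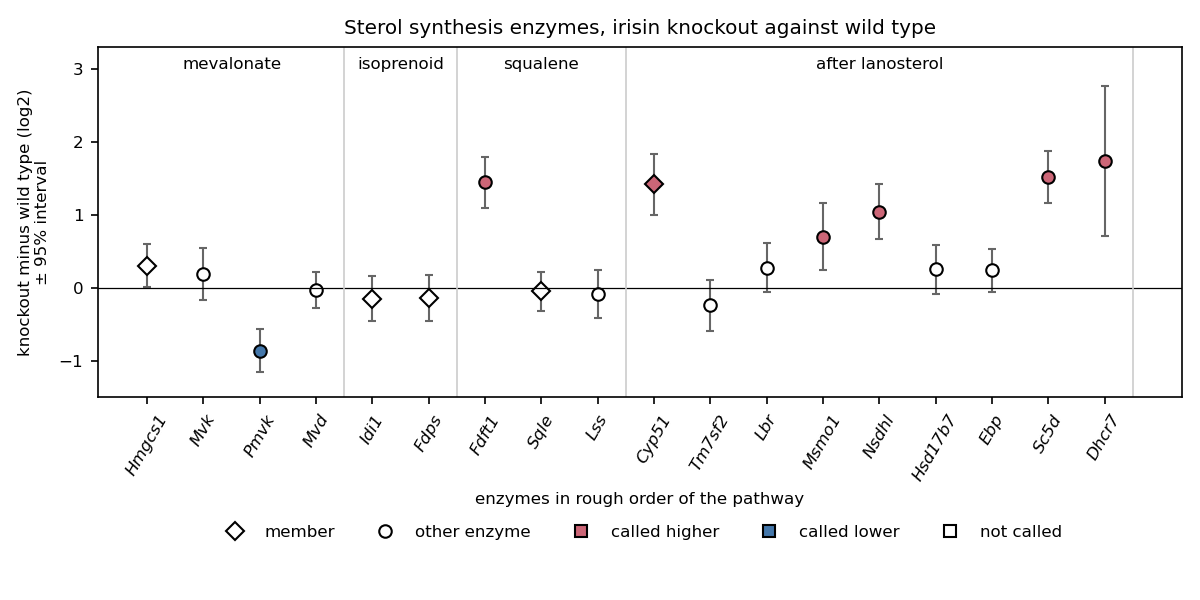
Difference of knockout and wild type (log2, y axis, with 95% intervals) for 18 sterol synthesis enzymes in rough pathway order (x axis); diamonds mark Hmgcs1, Idi1, Fdps, Sqle and Cyp51, circles the other 13, and fill marks the call. Called increases sit at Fdft1 and after lanosterol (Cyp51, Msmo1, Nsdhl, Sc5d, Dhcr7), and Pmvk is the 1 enzyme called lower. The calls of Msmo1 and Dhcr7 were lost in most fits without 1 array.

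Among 9 measured genes of SREBP processing and sterol sensing, 3 rose, 1 fell and 5 did not pass (median 0.15, from 0.093 without wild type replicate 3 to 0.245 without wild type replicate 2). Over all genes 10.4% were called higher and 6.18% lower. By mean level the 9 lie in parts 6 to 10, where 6.86% to 34.5% of genes were called higher. Insig2, the second Insig protein, read 5.11, 4.71 and 4.63 in wild type and 5.52, 5.70 and 5.50 in the knockout, a difference of 0.76 (SE 0.15, limma adjusted p = 0.0115). It was called in all fits without 1 array except that without knockout replicate 2 (0.0561). Rnf145, a ubiquitin ligase of the endoplasmic reticulum that responds to sterols, fell by 0.81 (0.00510). Rnf139, a related ligase, and Mbtps2, the second protease that frees the factor, were called at 0.50 (0.0205) and 0.52 (0.0368). Both lost the call after quantile normalization (0.120 and 0.0792) and after cyclic loess (0.157 and 0.0833). Both also lost it without wild type replicate 3 or any 1 knockout array, and Mbtps2 without wild type replicate 2 (Rnf139 up to 0.0879, Mbtps2 up to 0.130). Genes called higher in this list numbered 1 after either of those scalings, 1 in the fits that omit wild type replicate 3, knockout replicate 1 or knockout replicate 3, and 0 in the fit that omits knockout replicate 2.

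Lipoprotein receptors and genes of lysosomal cholesterol went both ways, with 2 of 10 higher, 2 lower and 6 not passing (median 0.17, and 0.096 without wild type replicate 3). Of all genes 10.4% were called higher and 6.18% lower. Most of this list lies in parts 9 and 10 by mean level, where 25.5% and 34.5% were called higher and 10.9% and 11.1% lower. Lipa, the lysosomal lipase that frees cholesterol from its esters, read 5.80, 5.54 and 5.62 in wild type and 6.65, 6.75 and 6.50 in the knockout (difference 0.98, SE 0.13, limma adjusted p = 0.00197). Vldlr, a receptor of triglyceride-rich lipoproteins, was higher by 0.80 (0.00415). Lrp1, a large endocytic receptor, fell by 1.41 (0.00324), from 7.63, 6.96 and 7.67 to 5.87, 5.89 and 6.26. Npc2, a soluble lysosomal cholesterol carrier, was lower by 0.50 (0.0231). Leaving out any single array except wild type replicate 2 ended its call (up to 0.0881). So did the replicate number as a block (0.0535) and centring (0.0600), and each of these left 1 gene of the list called lower.

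In the list of LXR receptors, cholesterol esters and efflux 1 of 8 rose, 2 fell and 5 did not pass (median -0.14, but -0.010 without wild type replicate 3 and -0.032 after centring). The shares over all genes were 10.4% higher and 6.18% lower. Nceh1, a hydrolase of cholesterol esters, read 7.46, 7.40 and 7.52 in wild type and 8.97, 8.90 and 8.81 in the knockout, a difference of 1.44 (SE 0.11, limma adjusted p = 0.000303). Apoe, the apolipoprotein of cholesterol transport, fell by 1.09 (0.00235) and Abca1, the efflux pump, by 0.94 (0.00245). Each of the 3 was called in every fit without 1 array. Lrp1, Apoe and Abca1 are lower on the knockout arrays, as are the means of the fibroblast and smooth muscle markers. The same holds for any other gene called lower, such as Pmvk or Npc2, so it ties none of them to these markers. Between the groups the means of the 7 and 4 markers differed by -1.44 and -2.60, and their part in these results was not tested.

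Fatty acid synthesis genes that the related factor encoded by Srebf1 controls were called in 1 case of 11, against 16.6% of all genes. Me1, malic enzyme, which supplies NADPH, rose by 1.26 (SE 0.16, limma adjusted p = 0.00178), and the list median was -0.28. That median was -0.157 without wild type replicate 1, -0.134 and -0.136 without knockout replicates 1 and 2, and -0.021 without both arrays numbered 1. It was -0.416 after quantile normalization, -0.432 after cyclic loess and -0.169 after centring. None of the 11 was called lower at adjusted p below 0.05 in limma, although Acaca and Fasn, chosen here after their values were seen, had differences of -0.72 (adjusted p = 0.0504) and -0.81, with unadjusted p of 0.00841 and 0.0230. Without wild type replicate 2, 3 of the list were called lower. In the branch that uses isoprenoids for other products, 3 of 9 rose, 0 fell and 6 did not pass (median 0.46). That median was 0.341 after quantile normalization, 0.323 after cyclic loess and 0.322 without wild type replicate 3. The 9 lie in parts 7 to 10 by mean level, where 13.4% to 34.5% of genes were called higher, against 10.4% of all genes. Dhdds, which makes the dolichol chain, differed by 1.05 (0.00348). Fnta, the shared subunit of the farnesyl and geranylgeranyl transferases, differed by 0.95 (0.00377). Pdss2, of the coenzyme Q side chain, differed by 1.06 (0.0139) and lost its call without knockout replicate 1 (0.0603) or 2 (0.0530).

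**Figure D5:**
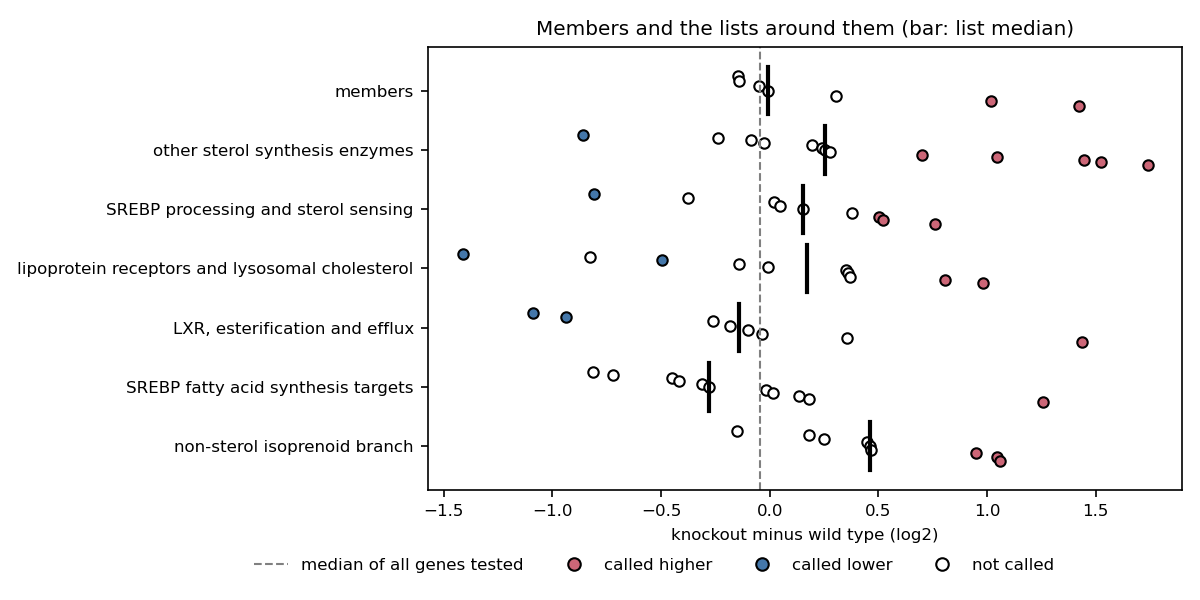
Difference of knockout and wild type (log2, x axis) for each of the 7 genes (top) and for each gene of 6 lists around them (y axis); fill marks the call, black bars list medians, and the dashed line the median of all genes. On the deposited values of all 6 arrays medians run from -0.28 for fatty acid synthesis to 0.46 for the non-sterol isoprenoid branch. The first shrinks to -0.134 without knockout replicate 1 and the second to 0.322 without wild type replicate 3. Each set holds both called and uncalled genes.

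The mean profile of the 7 genes, each scaled to mean 0 and SD 1 over the 6 arrays, was highest in knockout replicate 2 (0.70) and lowest in wild type replicate 2 (-0.79). This mean weighs the uncalled genes like the called pair, and its groups overlapped. It was 0.27 in wild type replicate 1, above knockout replicates 1 (-0.17) and 3 (0.04). The genes outside the set whose values followed it most closely were Actr3, Mvp, Rccd1, Abcg2 and Slc38a4, with Pearson's r of 0.98 each over 6 arrays. None of these 5 was called in limma (adjusted p 0.347 to 0.627; 0 of 5 at an unadjusted p under 0.05). They were picked as the highest of many, so the r is only a description.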

How the data were processed

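The authors deposited log2 values, 1 for each probe set on each array. The submitters' processing notes name RMA, affy 1.61.0 and R 3.6.0. The log2 scale is inferred from the range of the values. No source used here gives the probe set definition or the build. The platform annotation gave 1 symbol for 23185 of 25206 rows; the 2021 unnamed rows stayed out. Groups came from sample titles. All named genes were fitted with limma 3.58.1 (lmFit, eBayes; R 4.3.3), genotype being the single term, with no filter. The test was two-sided and p-values were adjusted over all 23185 genes (Benjamini-Hochberg); called means an adjusted p below 0.05. Differences are knockout minus wild type. The code was tested on simulated data. Precision is limited by 3 arrays per group.

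The genes and lists were chosen with earlier results of these data known. Named are the 7 genes, Fndc5 and, per list, up to 4 called genes by p. Motifs were chosen after the promoter sequences were seen. Alternatives were 3 scalings, filters on dim genes, all rows, variance models, array weights, a replicate block, leaving out each array, and other thresholds; leaving out both arrays numbered 1 was added after seeing the data. Deviations from group means of same-numbered arrays correlated at 0.090, 0.048 and 0.070 over genes, so the numbers were not taken as pairs. Plots were drawn with matplotlib 3.10.9.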

Additional observations from a re-analysis of the deposited data

How the results depend on the processing

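Cyp51, Insig1, Hmgcs1, Idi1 and Fdps kept their direction and their side of the threshold in each alternative in which they were tested; Fdps was left out by both filters on dim genes and Idi1 and Sqle by the stricter. Without 1 array the difference ran from 1.25 to 1.56 for Cyp51, 0.91 to 1.13 for Insig1 and -0.19 to 0.13 for Srebf2. Srebf2 also turned sign after centring (0.10) and without both arrays numbered 1 (0.064). Sqle turned after quantile normalization (0.072), centring (0.063) and cyclic loess (0.058) and without both arrays numbered 1 (0.014). Fndc5 kept its difference of -2.01 but not its call with a robust variance model or at a threshold of 0.01, and without 1 array it ran from -2.75 to -1.63.

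With the replicate number as a block, Cyp51 and Insig1 stayed called and lipoprotein genes called lower numbered 1. That count was also 1 after centring, at a threshold of 0.01 and without both arrays numbered 1 (3 without wild type replicate 2 and 1 in the other 5 fits without 1 array). LXR and efflux genes called higher numbered 2 after centring or at a threshold of 0.1. Isoprenoid genes called higher numbered 5 at 0.1. Other sterol enzymes called higher numbered 3 at 0.01 and 3 to 5 without 1 array. Fatty acid synthesis genes called lower numbered 1 after cyclic loess, without the dimmest 30% or 50% of genes, with robust variance, with array weights and at 0.1, and 0 to 3 without 1 array. SREBP processing genes called higher numbered 1 after quantile normalization, cyclic loess or without both arrays numbered 1, 0 at 0.01, and 0 to 4 without 1 array. Over all genes, 1256 were higher and 528 lower at 0.01, 2212 lower at 0.1 and 938 lower without both arrays numbered 1; without 1 array, 1403 to 2570 were higher and 701 to 1593 lower. The causes were not tested. Levels near or below the array median limit what can be said of Idi1, Fdps, Sqle and the wild type level of Cyp51.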

Other observations

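Promoter letters of the other sterol enzymes were counted as a description. Of the 13 listed enzymes with a RefSeq promoter, 12 held CCAAT and 12 GGGCGG in the 250 bases before at least 1 of their starts, against 39.5% and 45.8% of protein-coding genes. TCACNNCA was present in 5 of the 13, against 12.1% of protein-coding genes, and TCACCCCA in 0. Among 8 fatty acid synthesis genes with a promoter, 4 held CCAAT and 0 held TCACNNCA. Some genes have several starts, which raises their chance of a match, and these counts include genes with no row on the arrays.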
